A study of Homo sapiens with 16 samples.

Results

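CUTLL1 and KOPTK1 are 2 human cell lines of T-ALL, acute lymphoblastic leukaemia of T-cell type, and their transcriptomes were compared in their control libraries alone. The 4 libraries, of 16 in the series, were taken by their labels and hold 2 per line. One control of each line was infected with lentivirus carrying CRISPR components and a non-targeting guide (guide control). The other received a scrambled antisense oligonucleotide (ASO), given at 1 uM in the medium (ASO control). In the other libraries of these lines the long non-coding RNA lnrCXCR4 was targeted with guides or ASOs (8 libraries, 4 per line), and 4 further libraries came from HPB-ALL, another T-ALL line. All 3 are established lines, without further genotype in the labels, where KOPTK1 also appears as Koptk1. Not given in the sources used here are the time after treatment, the CRISPR effector and whether the 2 controls of a line came from separate cultures. The p-values below therefore measure no more than how these libraries spread, which may be technical.

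T-ALL arises from thymocytes that are stopped at a stage of T-cell development and driven by a misplaced transcription factor, by NOTCH1 activation, or by both. CUTLL1 is known for a translocation that joins the T-cell receptor (TCR) beta locus to NOTCH1 and gives a truncated, active NOTCH1. KOPTK1 is known for a translocation that places the LMO2 gene under the TCR delta locus, together with an activating NOTCH1 mutation. In both, cleaved NOTCH1 enters the nucleus and binds DNA through its partner RBPJ, whose core recognition sequence is TGGGAA.

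The promoters of 3 NOTCH targets are shown, picked from those higher in CUTLL1, as described further below. They are those of NRARP, a feedback inhibitor of NOTCH, and of the repressors HES1 and HES4. Each is 300 bases, from 250 before to 50 after the annotated start, written 5′ to 3′ on the gene's strand (RefSeq, GRCh38.p14), with TGGGAA in capitals. The NRARP window is chr9:137302222-137302521 on the minus strand, that of HES1 chr3:194135898-194136197 on the plus strand, and that of HES4 chr1:1000048-1000347 on the minus strand.
NRARP: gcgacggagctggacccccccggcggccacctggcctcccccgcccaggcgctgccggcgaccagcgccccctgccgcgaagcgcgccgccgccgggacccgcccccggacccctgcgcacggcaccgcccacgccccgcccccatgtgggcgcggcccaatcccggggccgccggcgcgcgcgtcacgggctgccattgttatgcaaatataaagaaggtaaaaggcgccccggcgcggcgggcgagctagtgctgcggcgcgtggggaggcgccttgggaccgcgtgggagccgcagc
HES1: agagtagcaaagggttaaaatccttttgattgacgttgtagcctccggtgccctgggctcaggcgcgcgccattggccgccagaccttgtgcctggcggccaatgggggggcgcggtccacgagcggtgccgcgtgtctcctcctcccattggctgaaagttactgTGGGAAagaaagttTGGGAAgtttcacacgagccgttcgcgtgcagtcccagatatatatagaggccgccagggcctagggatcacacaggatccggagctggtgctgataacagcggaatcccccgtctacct
HES4: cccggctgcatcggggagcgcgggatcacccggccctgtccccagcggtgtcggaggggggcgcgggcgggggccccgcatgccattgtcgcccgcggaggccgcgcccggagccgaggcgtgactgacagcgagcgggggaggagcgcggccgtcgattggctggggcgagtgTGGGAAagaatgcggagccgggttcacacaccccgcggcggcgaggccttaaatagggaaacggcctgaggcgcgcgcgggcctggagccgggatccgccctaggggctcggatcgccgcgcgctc
TGGGAA occurred 2 times in the HES1 window, 1 time in the HES4 window and not in the NRARP window. The windows of PTCRA, IL7R and NOTCH3, also targets higher in CUTLL1 and not printed, held neither TGGGAA nor its reverse complement. The motif or its reverse complement TTCCCA stood in 6635 of 27305 RefSeq promoters of this length (24.3%), and in 7 of the 31 genes of the NOTCH list with a promoter (22.6%). These matches describe letters in a window, not bound sites.

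Each control library held 39670893 to 72178929 reads over 22055 to 23933 genes. Mitochondrially encoded genes took 2.12% and 2.17% of the reads in CUTLL1 and 2.45% and 2.48% in KOPTK1. The 2 controls of a line lay close together although they were treated differently. Their mean chi-square per gene, where 1 is counting noise, was 2.29 in CUTLL1 and 4.06 in KOPTK1, against 267.84 to 336.03 for pairs across the lines. The median absolute log2 difference between the controls of a line was 0.055 in CUTLL1 and 0.062 in KOPTK1, against 0.407 between the lines. Of the 18 defining T-lineage markers 17 were listed, and 16 of them read 1000 or more normalised counts in all 4 libraries. The exception was TRAC, which is described with the TCR loci. Trace reads of the other line's genes also occurred. Over 58 genes that were high in KOPTK1 (1000 or more in both libraries, log2 difference past 7), the summed level in CUTLL1 was 0.118% of that in KOPTK1 in the guide control and 0.354% in the ASO control. Over 70 such genes of CUTLL1 the levels in KOPTK1 were 0.214% and 0.216%. The part of such traces in a low value was not tested.

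Levels are the authors' normalised read counts, given for the guide control and then the ASO control of a line. A difference is log2 of (normalised count + 1), CUTLL1 minus KOPTK1, ± its standard error from limma over the 4 libraries, so a negative difference means a higher level in KOPTK1. Where levels are set against each other, those of CUTLL1 come first, and a signed value with ± is the difference. A gene was called where the Benjamini-Hochberg adjusted p over all genes tested was under 0.05. With 2 libraries a line, an exact permutation test of a single gene cannot go below 0.333. Counts are not divided by gene length, so levels are compared between libraries and not between genes.

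Most genes differed between the lines beyond the spread of their controls. Of 13848 genes tested, 10821 were called (78.1%), 5371 of them higher in CUTLL1 (38.8%) and 5450 higher in KOPTK1 (39.4%). With a difference past 1, a 2-fold change, 1694 were higher in CUTLL1 (12.2%) and 1417 in KOPTK1 (10.2%), or 3111 in all (22.5%). Past 4 on the log2 scale there were 550 and 399. In 12356 genes (89.2%) the 2 libraries of a line lay on the same side of both libraries of the other. With so many calls a called gene is ordinary here, so the members of each list past 2-fold are also counted, to be set against 12.2% and 10.2%. The median difference over all genes tested was -0.003.

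**Figure D1:**
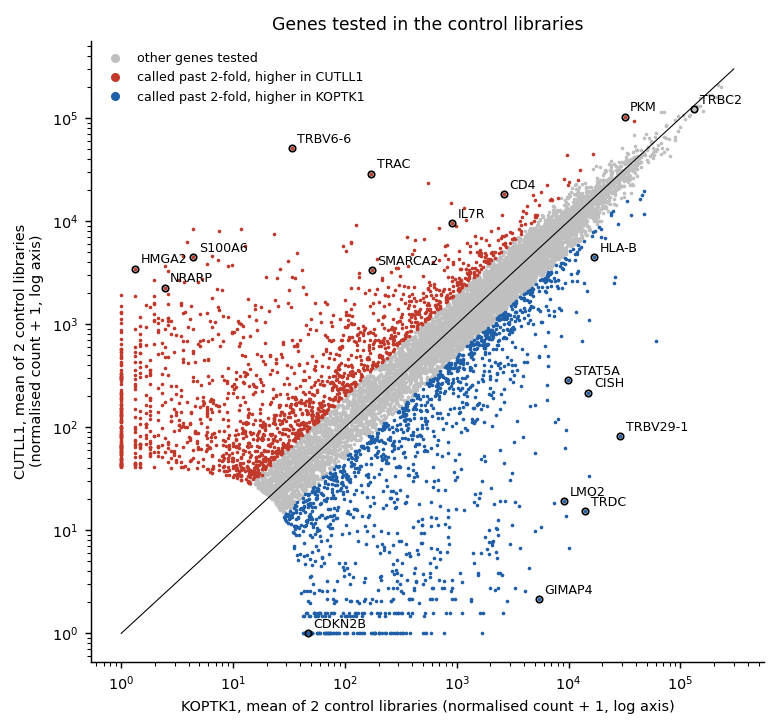
Mean normalised count + 1 of each gene tested in the 2 KOPTK1 control libraries (horizontal) and the 2 CUTLL1 control libraries (vertical), both on log axes, with the line of equal levels. Red and blue points are the 1694 and 1417 genes called past 2-fold. They fan out to the axes, where a gene was read in only 1 of the lines, while TRBC2 lies near the line of equal levels.

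The genes with the largest differences were read at high levels in one line and almost not at all in the other. In CUTLL1 they included HMGA2, an architectural chromatin protein of embryonic and tumour cells. Its levels were 3521 and 3409 there against 0 and 0.652 in KOPTK1, from 1 read in the latter. GALNT1, which starts O-glycan chains, read 6269 and 6236 against 3.87 and 1.96, a difference of 10.69 ± 0.22. B3GAT1, the enzyme that makes the CD57 epitope, read 3731 and 3687 against 0.969 and 1.96 (10.59 ± 0.20). The homeobox gene IRX1 read 4451 and 4652 against 3.87 and 1.3 (10.41 ± 0.31). The rule for the largest differences also took CCNI2, NCS1, NPTX1, STK32B, TSPAN6, SALL3, CRABP1 and NRARP in this direction.

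In KOPTK1 the largest differences included GIMAP4 and GIMAP8, GTPases of immune cells, and TFEC, a transcription factor of the MiT family. TFEC read 5.85 and 5.76 in CUTLL1 against 9777 and 10355 in KOPTK1, a difference of -10.53 ± 0.089 (limma adjusted p = 1.78e-09). LIN28B, which blocks maturation of let-7 microRNAs, read 1.95 and 1.15 against 3821 and 4289.7. CD40LG, the helper T-cell ligand of CD40, read 0 and 1.15 against 2633 and 2561. MDFIC read 1.95 and 4.61 against 4196 and 4614 and SLC18A2, a vesicular monoamine transporter, 0 and 5.76 against 2387 and 2484. The rule also took APBA2, GBP4, PRSS21, RNF157 and SCN7A. HMGA2 and LIN28B, both genes of the let-7 circuit, thus lay in opposite lines, and IGF2BP1 of the same circuit, chosen after its values were seen, read 287 and 297 in CUTLL1 and no read in KOPTK1.

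The TCR loci separated the lines. Each line read its own variable segments, CUTLL1 read the alpha constant gene TRAC, and KOPTK1 read the delta constant gene TRDC instead. TRAC read 29066 and 28444 in CUTLL1 against 142 and 199 in KOPTK1 (7.41 ± 0.13). TRDC read 0 and 28.8 in CUTLL1 against 14279 and 13881 in KOPTK1, a difference of -11.33 ± 1.31 (limma adjusted p = 0.00013), with all of its CUTLL1 reads in the ASO control. The beta constant gene TRBC2 read 123666 and 120177 in CUTLL1 against 135198 and 131791 in KOPTK1, a difference of -0.13 ± 0.033 that turned to 0.07 under quantile scaling. Constant genes are shared by every rearrangement of a locus, while variable segments differ between rearrangements. Whether a segment that was read is rearranged in the line was not tested. KOPTK1, with its low TRAC, was still higher for the alpha segments TRAV18, TRAV19, TRAV22, TRAV30, TRAV34, TRAV39 and TRAV41.

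Among the beta variable segments, TRBV6-6 read 52438 and 50134 in CUTLL1 against 50.4 and 15 in KOPTK1. TRBV29-1 read 7.81 and 153 in CUTLL1 against 29142 and 28991 in KOPTK1, and TRBV11-1 read 3.9 and 21.9 against 9312 and 9489.6. The 2 groups did not overlap for any of these, as in 89.2% of all genes tested. Their differences ran from -9.79 for TRBV11-1 to 10.80 for TRBV6-6. TRBV28 read 0 and 2.3 in CUTLL1 against 587 and 575 in KOPTK1. Of the alpha segments, CUTLL1 read TRAV9-2 at 8542 and 8381 and TRAV1-1 at 1979 and 1801, where KOPTK1 had 4.84 and 1.96 of the first and 1.94 and 0 of the second. The joining segment TRAJ3 read 1094 and 1192 in CUTLL1 against 0 and 3.26 in KOPTK1. Of the gamma segments, chosen after their values were seen, TRGV2 was higher in CUTLL1 (1044 and 1009 against 13.6 and 7.17) and TRGV4 in KOPTK1 (9.76 and 11.5 against 796 and 773). Of 207 TCR segments listed, 47 were tested. Of these 19 were called higher in CUTLL1, 18 of them past 2-fold, and 27 higher in KOPTK1, 22 past 2-fold, with a median of -0.61. Near-identical segments may share reads, so the split within a subfamily is uncertain.

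Genes of transcription factors that are misplaced in some T-ALL split between the lines as well. Whether any of them is misplaced in these lines was not tested here. KOPTK1 read LMO2, a bridging factor of blood stem cell complexes, with its partner TAL1 and the ETS factor ERG. CUTLL1 read the homeobox genes TLX1 and NKX2-2. LMO2 read 3.9 and 32.2 in CUTLL1 against 9169 and 9087 in KOPTK1 (-9.48 ± 0.74, limma adjusted p = 1.45e-05). As with TRDC, the higher CUTLL1 value was that of the ASO control. Both genes meet the limits of the genes high in KOPTK1 over which trace reads were summed, so their own reads are part of that sum. TAL1 read 3.9 and 4.61 against 721 and 705 (-7.09 ± 0.16), and ERG 0 and 1.15 against 909.6 and 846, a ratio of 1651, with a 95% interval from counting error of 296 to 65225. TLX1 read 131 and 121 in CUTLL1 and no read in KOPTK1, at least 108-fold higher against a floor of 3 reads over both libraries. NKX2-2 read 81 and 91 and no read, at least 73.5-fold higher. In the targeted libraries of CUTLL1 the means were lower, at 49.9 for TLX1 and 11.1 for NKX2-2. The mean of ERG in the targeted libraries of KOPTK1 was 102.

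Of the 26 subtype oncogenes 8 were tested, and all 8 were called, against 78.1% of all genes tested. There were 4 in each direction with 3 each past 2-fold, together 75.0% against 22.5%. The others tested were NOTCH3 and GFI1, higher in CUTLL1 (0.47 ± 0.031 for GFI1), and BCL11B, higher in KOPTK1 (-0.35 ± 0.053). BCL11B, a factor of T-cell commitment, read 7599.6 and 8546 against 10141 and 10383. GFI1, a repressor in early T cells, read 4078 and 4002 against 2933 and 2902. The other 18 did not pass the filter. LMO1, MEF2C, MYCN, NKX2-1, OLIG2, SPI1, HOXA9, HOXA11 and HOXA13 had no read in the 4 libraries. TLX3, LYL1, TAL2, LMO3, HHEX, HOXA5, HOXA7 and HOXA10 stayed under 20 in each, and LYL1, a relative of TAL1, read 1.95 and 2.3 in CUTLL1 against 9.69 and 7.17 in KOPTK1. NKX2-5 read 21.5 and 18.4 in CUTLL1 against 0 and 0.652 in KOPTK1.

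Among the factors of normal T-cell development both directions occurred. Of 30 listed, 26 were tested, with 11 called higher in CUTLL1 (3 past 2-fold), 13 higher in KOPTK1 (7 past 2-fold) and a median of -0.19. The HLH inhibitors ID1, ID2 and ID3, which hold E proteins off DNA, were all higher in CUTLL1. ID1 read 498 and 506 against 20.3 and 20.2 (4.56 ± 0.13), with 1.27 ± 0.16 for ID2 and 0.80 ± 0.04 for ID3. MEIS1, a HOX cofactor, read 90.7 and 79.5 in CUTLL1 against 5.81 and 5.22 in KOPTK1. Higher in KOPTK1 were ETS2 (1067 and 1133 against 15272 and 14975, -3.78 ± 0.037), EOMES (-2.29 ± 0.17), RUNX2 (-1.79 ± 0.041) and RUNX3 (-1.49 ± 0.046). TCF7, a first NOTCH-induced factor of the lineage, read 47937 and 46778 against 71782 and 69551 (-0.58 ± 0.031), and GATA3 3495 and 3277 against 5543 and 5371. TCF3, 1 of the E protein genes, differed by -0.06 ± 0.033 and was not called.

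NOTCH target genes differed in both directions. Among the targets higher in CUTLL1 were NRARP, HES1, HES4, PTCRA and IL7R, while MYC, CR2 and DTX1, also known as NOTCH targets, were higher in KOPTK1. Of 39 genes listed, 33 were tested, with 16 called higher in CUTLL1 (9 past 2-fold), 14 higher in KOPTK1 (3 past 2-fold) and a median of 0.19.

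The receptor NOTCH1 itself read 26184 and 26751 in CUTLL1 against 18394 and 17627 in KOPTK1 (0.56 ± 0.031, limma adjusted p = 2.29e-06). Counts of the whole gene do not tell a truncated from a full transcript. NOTCH3, itself a target, read 21978 and 22862 against 6628 and 6214, a 3.49-fold difference. NOTCH2 was higher in KOPTK1 (-0.35 ± 0.044). Of the ligands, JAG2 read 107 and 91 in CUTLL1 against 2.91 and 1.96 in KOPTK1, and DLL3 193 and 155 against 99.8 and 112. DLL3 was no longer called with the spread of all 16 libraries (limma adjusted p = 0.218) or of the 6 controls of 3 lines (0.263). LFNG, a glycosyltransferase that tunes ligand choice, was higher in KOPTK1 (26.3 and 34.5 against 82.3 and 69.8).

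Of the targets with the promoters printed above, NRARP read 2229 and 2289 in CUTLL1 against 2.91 and 0 in KOPTK1, from 3 reads in the latter. That is a ratio of 1930.3, with a 95% interval from counting error of 660.1 to 9364. Its HPB-ALL controls read 79.3 and 67.6. HES1 read 2591 and 2521 against 567 and 571, a 4.49-fold difference (2.17 ± 0.044). HES4 read 3875 and 4120.2 against 658 and 565, a 6.54-fold difference (2.71 ± 0.074). A link between motif and difference was not tested. These 3 genes were picked from the targets higher in CUTLL1, and sites outside the 300-base windows were not searched.

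PTCRA encodes the pre-TCR alpha chain, which pairs with a new beta chain at beta selection. It read 2192 and 2265 in CUTLL1 against 119 and 108 in KOPTK1, a 19.7-fold difference (4.29 ± 0.076, limma adjusted p = 1.32e-08). IL7R, the receptor chain that sustains thymocytes, read 9444 and 9686 against 913 and 906, a 10.5-fold difference. IGF1R differed by 0.80 ± 0.035 and the coactivator MAML3 by 1.37 ± 0.075, both higher in CUTLL1. In the other direction, CR2 read 415 and 393 against 3144 and 3118 (-2.95 ± 0.049), MYC 10466 and 10295 against 17124 and 16789 (-0.71 ± 0.027), and DTX1 15988 and 15908 against 19792 and 18984 (-0.28 ± 0.029). TRIB2 (-0.88 ± 0.042), the NOTCH inhibitor NUMB (-0.71 ± 0.03) and FBXW7, which marks NOTCH1 and MYC for destruction (-0.48 ± 0.041), were also higher in KOPTK1. MFNG (0.01 ± 0.034), HEYL (-0.39 ± 0.17) and DTX4 (0.49 ± 0.22) were the 3 members tested that were not called.

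**Figure D2:**
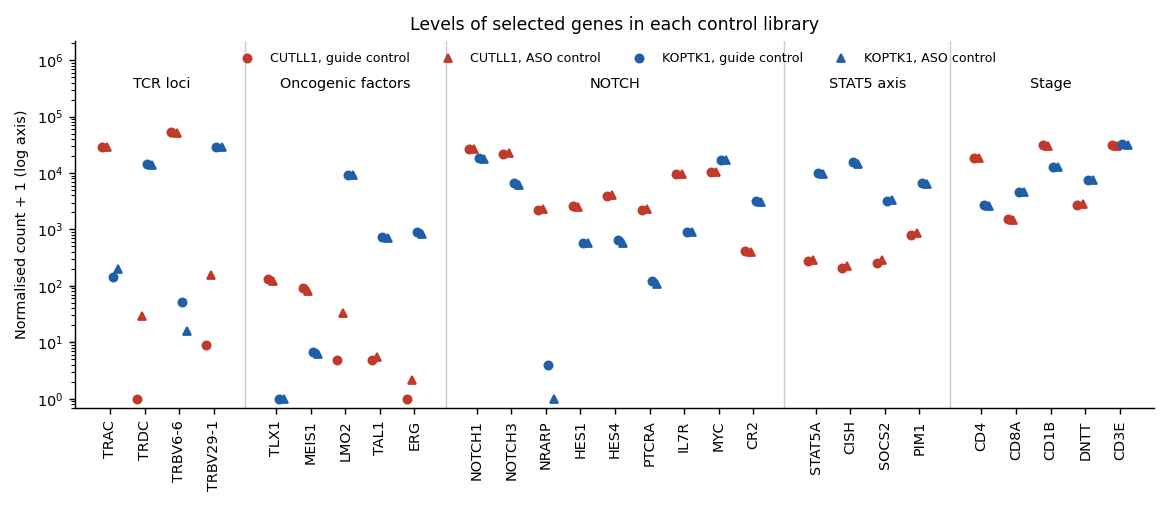
Normalised count + 1 (log axis) of selected genes in each of the 4 control libraries, red for CUTLL1 and blue for KOPTK1, circles for guide controls and triangles for ASO controls. The libraries of a line nearly coincide except at the lowest levels, as for TRDC and LMO2 in CUTLL1, and CD3E is level in both lines.

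The surface genes that stage thymocytes differed in both directions. CD4, CD1B, CD38 and CD44 were higher in CUTLL1, and CD8A and DNTT in KOPTK1. CD4 read 18169 and 18183 in CUTLL1 against 2714 and 2596 in KOPTK1, a 6.84-fold difference. CD8A read 1539.6 and 1466 against 4694 and 4606, a 3.09-fold difference the other way. CD8B differed by -0.20 ± 0.097 and was not called. DNTT, the polymerase that adds bases at TCR junctions, read 2763 and 2853 against 7415 and 7435 (-1.40 ± 0.03), while the recombinase genes RAG1 (4318 and 4456 against 2162 and 2194) and RAG2 (2246 and 2102 against 774 and 764) were higher in CUTLL1. CD69, a marker of recent activation, read 1594 and 1633 against 319.7 and 362, and CD27 467 and 442 against 77.5 and 78.9. CD6 differed by -0.84 ± 0.036. Of 27 genes listed, 23 were tested, with 13 called higher in CUTLL1 (9 past 2-fold) and 9 higher in KOPTK1 (3 past 2-fold), and the median was 0.18.

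The TCR signalling machinery was present in both lines. Of the 27 members tested 7 were called past 2-fold (25.9%, against 22.5% of all genes tested). CD3E read 31691 and 30467 in CUTLL1 against 32132 and 30756 in KOPTK1 and was not called (-0.02 ± 0.034). LCK, the first kinase of the cascade, read 22684 and 22772 against 37519 and 37014 (-0.71 ± 0.026). RASGRP1, which activates RAS downstream of the TCR, read 771 and 827 against 4967 and 5073, a 6.28-fold difference. UBASH3B, a phosphatase that restrains TCR signalling (-1.32 ± 0.03), and LCP2 (-0.83 ± 0.034) were also higher in KOPTK1. The 4 members higher in CUTLL1 past 2-fold were the adaptor SIT1 (5165 and 5041 against 1056 and 1019.8, 2.30 ± 0.037), the adaptor SLA (1.77 ± 0.03), the phosphatase PTPN6 (14265 and 13988 against 4342 and 4227, 1.72 ± 0.029) and the kinase TEC (1.04 ± 0.16). Of 28 listed, 27 were tested, with 9 called higher in CUTLL1 and 15 in KOPTK1 (3 past 2-fold), and a median of -0.19.

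STAT5A, CISH, STAT4 and IL18R1 led the cytokine receptor and JAK-STAT list, all higher in KOPTK1. STAT5 is activated by cytokine receptors such as the IL-7 receptor, and CISH, SOCS1, SOCS2 and PIM1 are among its known targets. STAT5A read 280.0 and 291 in CUTLL1 against 10088 and 9675 in KOPTK1, a 34.6-fold difference (-5.11 ± 0.043). CISH, a feedback inhibitor, read 209 and 222 against 15411 and 14634, a 69.7-fold difference (-6.12 ± 0.048, limma adjusted p = 1.5e-09). For both genes the controls of the lines did not overlap, as in 89.2% of all genes tested. The HPB-ALL controls read 48.9 and 50.5 for CISH. STAT4 read 5.85 and 9.21 against 819 and 839.8 (-6.63 ± 0.20), and IL18R1 3.9 and 1.15 against 112 and 121.

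Other STAT5 genes were chosen after their values were seen. SOCS2 read 253 and 292 against 3141 and 3257 (-3.55 ± 0.075), the kinase PIM1 802 and 867 against 6618 and 6369 (-2.96 ± 0.047), and SOCS1 476 and 487 against 2731 and 2849 (-2.53 ± 0.047). STAT5B, the close paralogue of STAT5A, differed by only -0.91 ± 0.029, and JAK2 by -1.64 ± 0.062. Of the receptor chains, IL7R was higher in CUTLL1 as given above, IL2RG read 32002 and 30701 in CUTLL1 against 21468 and 20455 in KOPTK1, and IL10RA 190.3 and 185 against 31 and 39.1. SOCS3 (1.54 ± 0.13) and PIM2 (0.83 ± 0.069), of the same families as SOCS1, SOCS2 and PIM1, went the other way, higher in CUTLL1. JAK1 was not called (limma adjusted p = 0.897). Of 38 cytokine receptor and JAK-STAT genes listed, 33 were tested, with 11 called higher in CUTLL1 (3 past 2-fold) and 20 higher in KOPTK1 (10 past 2-fold), and the median was -0.34.

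In PI3K and RAS signalling, inhibitors of the pathway differed in both directions. INPP4B, a lipid phosphatase that opposes PI3K, read 0 and 2.3 in CUTLL1 against 1339.8 and 1354 in KOPTK1, from 2 reads in the former, a ratio of 1277, with a 95% interval from counting error of 353 to 10545. PHLPP1, a phosphatase of AKT, read 1908 and 1981 against 187 and 182, a 10.5-fold difference the other way. The ERK phosphatases DUSP4 (653 and 580.4 against 36.8 and 31.3) and DUSP5 (243 and 249 against 11.6 and 7.82), both induced by RAS signalling, were higher in CUTLL1, as was SPRED1 (1.55 ± 0.076). SPRY1, another feedback inhibitor of RAS signalling, was higher in KOPTK1 (51.7 and 51.8 against 401 and 451, -3.01 ± 0.12), and so was PIK3R6, a regulatory subunit of PI3K gamma (4.88 and 8.06 against 515 and 461). Of 36 listed, 34 were tested, with 12 called higher in CUTLL1 and 20 in KOPTK1, 6 past 2-fold each way, and a median of -0.21.

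Homing receptors differed in both directions, with more of them past 2-fold in KOPTK1. CXCR4, the receptor for which the targeted RNA is named, read 24919.8 and 24422 in CUTLL1 against 18309 and 17550.1 in KOPTK1, a 1.38-fold difference (0.46 ± 0.031, limma adjusted p = 5.88e-06). S1PR5 read 703 and 668 against 3.87 and 1.3 (7.68 ± 0.33), while S1PR1, through which T cells leave the thymus, read 61.5 and 55.3 against 558 and 527 (-3.20 ± 0.11). CCR2 (273 and 246 against 33.9 and 21.5) was higher in CUTLL1. CCR4 (3.9 and 2.3 against 101 and 93.9) and CCR8 (68.3 and 67.9 against 481 and 439) were higher in KOPTK1. Of the integrins, ITGAV differed by 2.73 ± 0.098 and the collagen receptor chain ITGA1 by -2.54 ± 0.048. Of 46 genes listed, 34 were tested, with 14 called higher in CUTLL1 (5 past 2-fold) and 18 higher in KOPTK1 (13 past 2-fold), and a median of -0.45.

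The HLA class I heavy chains HLA-B and HLA-C were higher in KOPTK1. HLA-B read 4454 and 4505 in CUTLL1 against 16964 and 16709 in KOPTK1, a 3.76-fold difference, and HLA-C 9301 and 9338 against 27854 and 27827, a 2.99-fold difference. HLA genes vary between people and resemble each other, so reads of a line may be lost or shared among them. NLRC5, the transactivator of class I genes, read 388 and 420.3 against 3375 and 3196 (-3.02 ± 0.057), and the light chain B2M was not called (0.03 ± 0.032). ERAP1, which trims peptides, was higher in CUTLL1 (1.13 ± 0.029), as were PDIA3 (0.60 ± 0.026) and HLA-G (0.60 ± 0.20), the latter not called when 1 of 3 of the libraries was left out. So was ULBP2, a stress ligand of NK cells (1.10 ± 0.12), while MICA, another, was higher in KOPTK1 (-1.09 ± 0.083). Of 25 listed, 23 were tested, with 6 called higher in CUTLL1 (2 past 2-fold), 14 in KOPTK1 (4 past 2-fold) and a median of -0.32. Of 21 genes of class II presentation 9 were tested, with 6 called higher in CUTLL1 and 3 in KOPTK1, 3 past 2-fold each way (median 0.44), and 11 stayed under 20 in all 4 libraries, among them HLA-DRA, CD74 and CIITA. HLA-DQB1 read 81 and 81.8 in CUTLL1 against 0.969 and 0 in KOPTK1, and CTSS, a lysosomal protease, 188 and 215 against 1014 and 1055. HLA-DOA (2.89 ± 0.29), HLA-DOB (2.71 ± 0.23) and the regulator RFXANK (0.57 ± 0.034) were also higher in CUTLL1, and HLA-DMA (-1.49 ± 0.25) and CD83 (-1.02 ± 0.05) in KOPTK1.

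Interferon-response genes were mostly higher in KOPTK1. Of 37 listed, 34 were tested, and 23 were called higher in KOPTK1 (16 past 2-fold, against 10.2% of all genes) and 8 higher in CUTLL1 (3 past 2-fold). The median was -0.95. TRIM22, an antiviral ubiquitin ligase, read 1.95 and 3.45 in CUTLL1 against 2510.0 and 2576 in KOPTK1 (-9.45 ± 0.20). IFIH1, the sensor of long double-stranded RNA, read 6.83 and 3.45 against 719.8 and 709 (-6.92 ± 0.26), and OAS2 178 and 143 against 4491 and 4523. IFIT1 differed by -4.46 ± 0.23. Some members went the other way. IFITM2 read 263 and 309 in CUTLL1 against 4.84 and 9.78 in KOPTK1 (5.17 ± 0.29), and MX2 (1.84 ± 0.073), MX1 (0.84 ± 0.14) and IFI27 (1.15 ± 0.24) were also higher in CUTLL1. IFI27 was no longer called without the guide control of CUTLL1 (1.02, limma adjusted p = 0.0668). The common marker ISG15, chosen after its values were seen, differed by -0.16 ± 0.037.

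At the CDKN2 locus, which encodes cell cycle inhibitors, neighbouring genes differed in opposite directions. CDKN2A, often deleted in T-ALL, was read in both lines, at 2503 and 2362 in CUTLL1 against 1154 and 1135 in KOPTK1 (1.09 ± 0.044). Its neighbour CDKN2B had no read in CUTLL1 and read 46.5 and 45.6 in KOPTK1, and MTAP, beside them, read 3087 and 2969.8 against 4322 and 4307. The imprinted inhibitor CDKN1C read 280.0 and 241 against 12.6 and 5.87 (4.75 ± 0.31), and CDKN1B differed by 0.99 ± 0.049. CCND1 read 63.4 and 80.6 in CUTLL1 against 0.969 and 0.652 in KOPTK1. ETV6 (-1.22 ± 0.052), BCORL1 (-0.90 ± 0.045), RPL22 (-0.88 ± 0.05) and SH2B3, an inhibitor of JAK signalling (-0.75 ± 0.046), were higher in KOPTK1. Of 37 listed, 35 were tested, with 16 called higher in CUTLL1 and 13 in KOPTK1, only 3 and 2 of them past 2-fold, and a median of 0.05.

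Among death receptor genes, TNFRSF10B, a receptor for TRAIL, read 1109 and 1123 in CUTLL1 against 45.5 and 52.8 in KOPTK1, a 22.7-fold difference, and TNFRSF10A differed by 1.31 ± 0.15. The gene of the ligand TRAIL itself, TNFSF10, read 49.8 and 41.5 against 1823 and 1753 (-5.27 ± 0.11), FAS 136 and 104 against 1327 and 1405 (-3.51 ± 0.13), and CASP10, an initiator caspase of these receptors, 156 and 142 against 2394 and 2498 (-4.03 ± 0.071). Of the BCL2 family, which acts at mitochondria, BIK was higher in KOPTK1 (-2.90 ± 0.072) and BMF in CUTLL1 (1.05 ± 0.10). Over the 30 BCL2 family and death receptor genes listed, 28 were tested, with 10 called higher in CUTLL1 (5 past 2-fold), 16 in KOPTK1 (6 past 2-fold) and a median of -0.21.

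Among 40 genes of drug response, 31 were tested, with 16 called higher in CUTLL1 (4 past 2-fold) and 11 in KOPTK1 (1 past 2-fold), and the median was 0.09. NR3C1, the glucocorticoid receptor, was nearly level at 3733 and 3783 against 3421 and 3276 (0.17 ± 0.034). GSTM3, a glutathione transferase, read 1023 and 1019 in CUTLL1 and no read in KOPTK1, at least 874-fold higher. SLC29A2, a nucleoside transporter, read 676 and 717 against 63 and 78.2 (3.29 ± 0.13), TSC22D3, a glucocorticoid target, differed by 1.93 ± 0.18 and GSTM2 by 1.21 ± 0.096. GGH, which removes glutamates from methotrexate, was the 1 past 2-fold in KOPTK1, at 221 and 221 against 1149 and 1279 (-2.45 ± 0.075). DCK, which activates cytarabine and nelarabine metabolites, differed by -0.62 ± 0.045, GSTP1 by -0.64 ± 0.025 and ASS1 by -0.62 ± 0.12.

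Lists of growth and housekeeping genes had few members past 2-fold, at 2.4% to 9.1% of those tested against 22.5% of all genes. All 34 genes of S phase and mitosis were called (against 78.1% of all genes), 20 higher in CUTLL1 and 14 in KOPTK1, with 1 past 2-fold each way. These were CCNE1 (1.06 ± 0.054) and the helicase subunit MCM4 (19711 and 19803 against 48080.2 and 46783, -1.26 ± 0.027). MCM7 (0.50 ± 0.027), GINS2 (-0.45 ± 0.027) and PLK1 (-0.64 ± 0.032) were named by the same rule, as were the mitotic genes CENPE (-0.83 ± 0.03), NUSAP1 (0.48 ± 0.029) and TTK (0.59 ± 0.029). Of the MYC network and ribosome biogenesis 33 of 34 were tested, 14 and 11 were called (75.8%, against 78.1% of all genes), and 3 were past 2-fold. MXI1, a MYC antagonist, read 2337 and 2313 against 352 and 323 (2.78 ± 0.059), MYCL 45.9 and 66.8 against 0.969 and 1.3, and MLXIP, a glucose-sensing partner of the network, was higher in KOPTK1 (-1.57 ± 0.032). MAX, the common partner, differed by -0.64 ± 0.027, MNT by 0.78 ± 0.053, NOP56 by 0.27 ± 0.026, and UTP20 read 3428 and 3468 against 7080.5 and 6717. Of 89 cytosolic ribosomal proteins 82 were tested, with 17 and 44 called (74.4%) and a median of -0.10. The 2 past 2-fold were both higher in KOPTK1. RPL22L1, the paralogue of RPL22, read 1289 and 1371 against 7220.0 and 7646 (-2.48 ± 0.044), and RPL7 differed by -1.39 ± 0.095. RPL4 (0.38 ± 0.033), RPL17 (0.95 ± 0.11), RPL24 (0.46 ± 0.025), RPS21 (0.96 ± 0.039) and RPS28 (-0.92 ± 0.035) differed less. Of 15 mitochondrially encoded genes 3 were called higher in CUTLL1 and 11 in KOPTK1, with a median of -0.39. MT-RNR1 was the 1 past 2-fold (-1.08 ± 0.099), while MT-ND1 was higher in CUTLL1 (0.40 ± 0.028). MT-ATP6 (-0.62 ± 0.028), MT-ND3 (-0.57 ± 0.028), MT-ND5 (0.23 ± 0.029), MT-ND6 (-0.79 ± 0.07) and the ribosomal RNA MT-RNR2 (0.22 ± 0.037) lay between them.

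Of 34 glycolysis and hypoxia genes 32 were tested, with 21 called higher in CUTLL1 (5 past 2-fold) and 7 in KOPTK1 (2 past 2-fold), and a median of 0.23. The share past 2-fold, 21.9%, was near the 22.5% of all genes. PKM, the pyruvate kinase of proliferating cells, read 103481 and 101982 against 32011 and 31261, a 3.25-fold difference (1.70 ± 0.029, limma adjusted p = 1.13e-08). ALDOC (2.42 ± 0.087), the glucose transporter SLC2A3 (1.89 ± 0.062) and PFKFB4 (314 and 319 against 85.2 and 95.8) were also higher there. EPAS1, which encodes HIF-2 alpha, was higher in KOPTK1 (91.7 and 101 against 1182 and 1164), as was BNIP3 (-3.15 ± 0.20), with KDM3A at -0.37 ± 0.028 and PFKM at -0.65 ± 0.033. Of 25 cholesterol synthesis genes 24 were tested, with 10 and 7 called, and 2 were past 2-fold, CYP51A1 among them (2.35 ± 0.17). Smaller differences were those of FDFT1 (-0.41 ± 0.026), PMVK (-0.82 ± 0.045), TM7SF2 (0.35 ± 0.07), STARD4 (0.34 ± 0.055), the feedback regulator INSIG1 (-0.81 ± 0.035) and the transcription factor SREBF1 (-0.50 ± 0.031). Of 26 genes of the ATF4 response and serine synthesis 24 were tested, with 8 and 12 called, 3 and 4 past 2-fold. CTH (3.02 ± 0.18), DDIT4 (2.12 ± 0.043), VLDLR (1.00 ± 0.061) and CEBPB (1.03 ± 0.086) were higher in CUTLL1, and CBS (550.3 and 588 against 2557 and 2485, -2.15 ± 0.051), ATF3 (-2.23 ± 0.12), CHAC1 (-2.17 ± 0.11) and PSAT1 (-1.08 ± 0.032) in KOPTK1.

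Of the 36 chromatin regulators tested 7 were called past 2-fold (19.4%, against 22.5% of all genes tested). SMARCA2, an ATPase of the SWI/SNF remodeller, read 3329 and 3360.2 in CUTLL1 against 173 and 175 in KOPTK1, a 19.2-fold difference (4.26 ± 0.053). CHD7, another remodeller, read 6583 and 6895 against 522 and 506 (3.71 ± 0.042), the Polycomb subunit CBX7 differed by 1.54 ± 0.074 and HDAC4 by 0.79 ± 0.047. Higher in KOPTK1 were HDAC7 (-1.78 ± 0.031), PCGF2 (-1.69 ± 0.078), the DNA methyltransferase DNMT3B (-1.36 ± 0.044) and KDM2B (-1.15 ± 0.027). Of 39 listed, 36 were tested, with 11 and 16 called, 3 and 4 past 2-fold, and a median of -0.04. Of 33 imprinted genes listed, 17 were tested, with 7 called each way, 5 past 2-fold in CUTLL1 and 4 in KOPTK1. H19 had no read in CUTLL1 and read 504 and 500.1 in KOPTK1, at least 317-fold higher, and its neighbour IGF2 had no read in either. NDN (0 and 3.45 against 240.2 and 245), MKRN3 (334 and 325 against 698 and 710.1) and L3MBTL1 (0.976 and 0 against 395 and 368) were also higher in KOPTK1. GRB10 (627 and 594 against 34.9 and 37.2), MEST (146 and 154 against 6.78 and 3.91) and KCNQ1OT1 (1.70 ± 0.11) were higher in CUTLL1.

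Of 40 cancer-testis genes 4 were tested and 34 stayed under 20 in all 4 libraries. TEX15 read 153 and 155 in CUTLL1 and no read in KOPTK1, at least 132-fold higher, STAG3 differed by 1.03 ± 0.047, and PRAME read 1.95 and 1.15 in CUTLL1 against 46.5 and 37.2 in KOPTK1. Of 38 HOX genes 6 were tested. HOXB2 (1.95 and 0 against 83.3 and 75.6), HOXB3 (-0.70 ± 0.074) and HOXB4 (-0.83 ± 0.059) were higher in KOPTK1, and HOXC6 in CUTLL1 (69.3 and 74.8 against 4.84 and 2.61). Of 57 clustered protocadherins 2 were tested, and PCDHB2 read 0.976 and 0 against 123 and 109.5. Of 544 zinc finger genes named ZNF 438 were tested, with 148 called higher in CUTLL1 (33 past 2-fold) and 185 in KOPTK1 (29 past 2-fold), together 14.2% of those tested against 22.5% of all genes. ZNF469 read 756 and 848 in CUTLL1 against 0.969 and 0 in KOPTK1, and ZNF358 (318 and 357) had no read in KOPTK1. ZNF462 (607 and 602 against 0.969 and 1.96) and ZNF239 (443 and 450.2 against 0.969 and 0.652) were the next in size. ZNF57 had no read in CUTLL1 and read 390.4 and 379 in KOPTK1, with ZNF215 (0 and 3.45 against 701 and 769), ZNF613 (0 and 1.15 against 509.6 and 527) and ZNF718 (1.95 and 1.15 against 868 and 901) in the same direction. Of 89 replication-dependent histones, whose RNAs are mostly without a poly(A) tail, 19 were tested, with 9 called higher in CUTLL1 (5 past 2-fold) and 4 in KOPTK1 (1 past 2-fold), median 0.46. HIST1H1C read 403 and 399.6 in CUTLL1 against 84.3 and 92.6 in KOPTK1, and HIST3H2A 67.3 and 62.2 and no read in KOPTK1. HIST1H2AC (1.45 ± 0.16), HIST1H2BD (-0.74 ± 0.18), HIST1H2BH (1.93 ± 0.09) and HIST1H2BK (-0.77 ± 0.095) were the other members named by the rule. Histone genes are near-identical and may share reads.

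**Figure D3:**
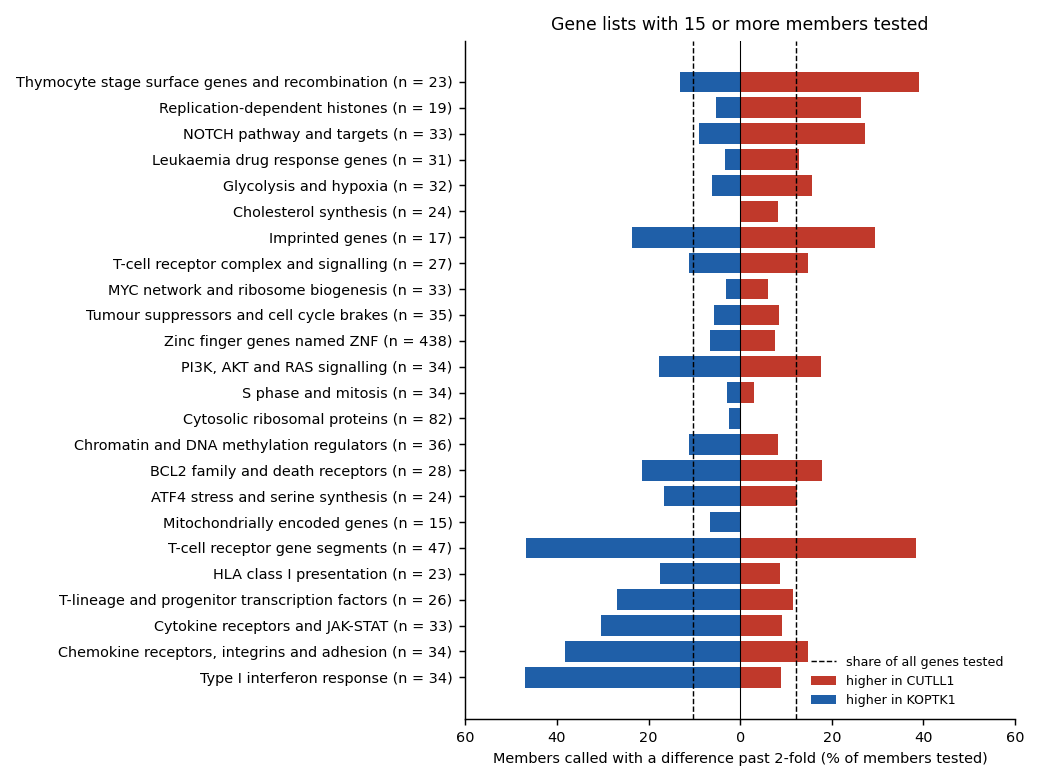
Share of the members tested (%) of gene lists with 15 or more members tested, 1 such list left out, called past 2-fold, higher in CUTLL1 to the right and in KOPTK1 to the left. Dashed lines mark the shares of all genes tested, 12.2% and 10.2%. Interferon-response genes (16 of 34 in KOPTK1), TCR segments (22 of 47 in KOPTK1, 18 of 47 in CUTLL1) and thymocyte stage genes (9 of 23 in CUTLL1) have the longest bars, and S phase genes (1 of 34 each way) are among the shortest.

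Genes read in 1 line only were counted from recovered reads. A gene counted as on where both controls of a line read 50 normalised counts or more, and as off where the other line's controls held 3 reads or fewer together. There were 224 such genes in CUTLL1, 106 of them without any read in KOPTK1, and 170 in KOPTK1, 60 of them without any read in CUTLL1. A count of 3 reads over both libraries is worth 1.58 normalised counts in CUTLL1 and 1.17 in KOPTK1, so an unread gene may still be present below that level. The floor covers counting error only. The levels reached 3465 (HMGA2) in CUTLL1 and 5442 (GIMAP4) in KOPTK1, with medians of 162.5 and 187.1.

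Among those of CUTLL1, NCS1, a neuronal calcium sensor, read 1955 and 1907 and no read in KOPTK1, at least 1652-fold higher. STK32B (1481 and 1496), NPTX1 (1279 and 1323) and TSPAN6 (1266 and 1282) were also without a read in KOPTK1. SALL3 read 1733 and 1989.8, CRABP1, a retinoic acid binding protein, 2669 and 2712, AKR1C3 1531 and 1429, B4GALT2 1520.1 and 1556 and DNAJA4 1606 and 1639. TEKT4P2, a pseudogene that may share reads with its parent, read 1645 and 1488. Among those of KOPTK1, SCN7A read 1614 and 1747 and no read in CUTLL1, at least 1061-fold higher. RNF157 read 3403 and 3185, KCNK1 2267 and 2123, APBA2 1986 and 1979.6, GBP4, an interferon-induced GTPase, 1708 and 1714, PRSS21 1624 and 1581 and GPT2 1357 and 1348. Each had 1 to 3 reads in CUTLL1.

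The controls of HPB-ALL show how many of these genes another T-ALL line reads. By the same limits, HPB-ALL read 59 of the 224 genes of CUTLL1 (26.3%), was off for 122 (54.5%) and lay between for 43. Of the 170 of KOPTK1 it read 47 (27.6%), was off for 82 (48.2%) and lay between for 41. LIN28B and APBA2 of KOPTK1 and STK32B, SALL3, B4GALT2 and NRARP of CUTLL1 were on in HPB-ALL. HMGA2, CRABP1, NCS1, GIMAP4 and RNF157 were off. In the targeted libraries, which the choice did not use, the 4 libraries of CUTLL1 lay above the 4 of KOPTK1 in 221 of the 224 (against 38.3% of all genes tested there), and those of KOPTK1 above in 159 of the 170 (against 38.5%). The other line reached a level of 20 or more in a targeted library for 2 and 1 of them. Genes chosen for so large a difference would mostly separate again in the same 2 lines, so these counts are a description only.

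Some genes that differed in the same direction lay side by side. Along the RefSeq gene order, 48 runs of at least 3 neighbouring tested genes were all called past 2-fold higher in CUTLL1, and 46 in KOPTK1, over 12353 genes that could be placed. With 12.2% and 10.2% of all genes tested past 2-fold, some runs arise in any gene order, and how many was not tested. Several runs hold TCR segments or related genes, which may share reads. Copy number was not measured. The longest run in KOPTK1 held 9 TCR alpha and delta segments that ended with TRDJ3 and TRDC, with a median difference of -6.30. The next was the GIMAP cluster of 7 GTPases that support lymphocyte survival (median -7.21). GIMAP5 read 91.7 and 93.3 in CUTLL1 against 9489 and 9333 in KOPTK1, GIMAP1 66.3 and 57.6 against 9165 and 9415, and GIMAP7 12.7 and 21.9 against 7433 and 7378. Within the cluster, GIMAP2 (-3.02 ± 0.041) and GIMAP6 (-3.46 ± 0.049) differed least. GIMAP4 and GIMAP8 differed most.

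The third run held 6 genes of the SLAM family of lymphocyte receptors (median -3.11). LY9 read 17.6 and 15 against 711 and 701, CD244 123 and 137 against 2218 and 2266, SLAMF6 126 and 101 against 1486 and 1443, and CD48 880.1 and 881 against 2571 and 2611. Runs of the same length, named after their values were seen, held SLC4A10, DPP4, IFIH1, GCA, SCN3A and SCN2A (median -5.90), and TRBV28 to TRBJ2-2P. DPP4, the surface protease CD26, read 110.3 and 129 in CUTLL1 against 7833 and 8147 in KOPTK1, and its neighbour SCN3A, a sodium channel gene, 3.9 and 1.15 against 589 and 567. The 5 cytidine deaminase genes APOBEC3C, APOBEC3D, APOBEC3F, APOBEC3G and APOBEC3H, also named after their values were seen, had a median of -2.43.

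In CUTLL1 the longest runs had 6 genes. One held NR4A2, GPD2, CYTIP, ACVR1, PKP4 and TANC1 (median 2.08), where GPD2 read 1243 and 1213 in CUTLL1 against 93 and 108 in KOPTK1. The other run held SALL2 and 5 TCR alpha variable segments up to TRAV9-2 (median 3.58). Of the runs of 5, one held the brain-expressed X-linked genes BEX2, WBP5, NGFRAP1, TCEAL4 and TCEAL3 (median 1.71). BEX2 read 542 and 514 against 67.8 and 76.9. Of the S100 calcium-binding proteins, named after their values were seen, S100A6 read 4497 and 4447 against 2.91 and 3.91, S100A4 7055 and 6922 against 384 and 329, and S100A10 differed by only 0.31 ± 0.042.

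The genes around CXCR4 did not form such a run. Of 16 listed, 11 were tested and all 11 were called, against 78.1% of all genes tested. Of these 6 were higher in CUTLL1, none past 2-fold, and 5 in KOPTK1, 3 past 2-fold (27.3%, against 22.5%). The 3 were LCT, the lactase gene (54.6 and 55.3 against 868 and 805, -3.90 ± 0.097), TMEM163 (44.9 and 33.4 against 362 and 364, -3.20 ± 0.16) and ZRANB3 (-1.34 ± 0.089). MCM6, next to LCT, was also higher in KOPTK1 (-0.45 ± 0.026). CXCR4 and its neighbour DARS (0.39 ± 0.027), with CCNT2 (0.41 ± 0.035) and RAB3GAP1 (0.28 ± 0.03), were higher in CUTLL1. The lncRNA lnrCXCR4 is not listed under that name and was not analysed here.

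**Figure D4:**
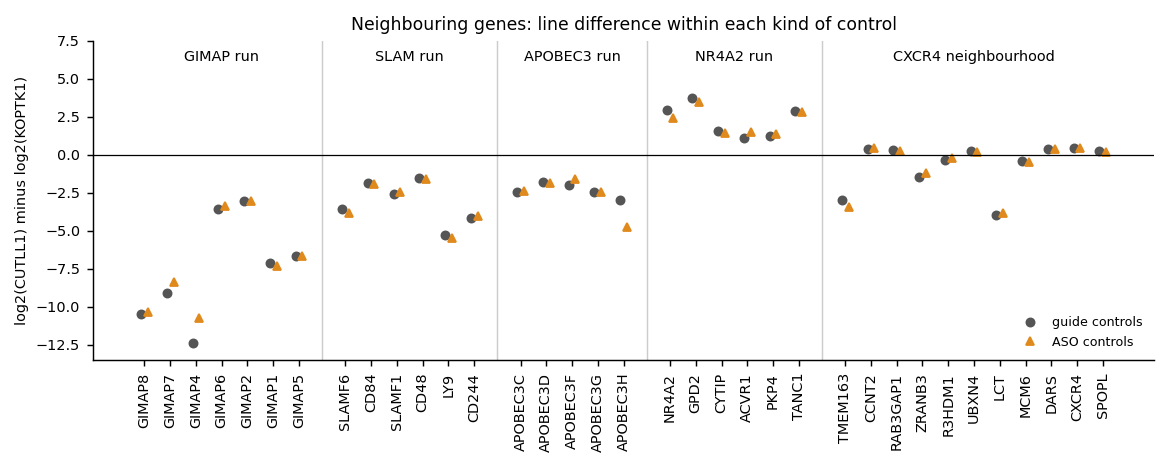
Difference between the lines, log2(CUTLL1) minus log2(KOPTK1) of normalised count + 1, for neighbouring genes, within guide controls (circles) and within ASO controls (triangles), each from 1 library a line. Every gene of the GIMAP, SLAM and APOBEC3 runs lies below 0 and every gene of the NR4A2 run above it, with both kinds of control, while the CXCR4 neighbourhood is mixed.

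Markers of other cell types were mostly low or unread. Of 16 B-lineage markers that the table lists, 5 were tested and all were called, against 78.1% of all genes tested. Past 2-fold, 4 were higher in KOPTK1 (80.0%, against 10.2%). These were CR2, CD79A (362 and 345 against 2005 and 1893), CD79B (7.81 and 3.45 against 659 and 659) and IGLL1 (514 and 546 against 1949 and 1966). The summed level of the list was 2113 and 2120.0 in CUTLL1 and 8379 and 8273 in KOPTK1. Of the defining genes, MS4A1 had no read and PAX5 at most 0.652. POU2AF1 was higher in CUTLL1 (0.46 ± 0.057), but was not called with the spread of all 16 libraries (limma adjusted p = 0.0658). Of 21 myeloid markers 19 stayed under 20 in all 4 libraries, with CD33 at 0 and LYZ at most 2.30, and only AIF1 was tested (11750.1 and 11397 against 6507 and 6592). It made up nearly all of the list's sum of 11790.1 and 11432 in CUTLL1 and 6552 and 6644 in KOPTK1. Of 22 NK and cytotoxic markers 7 were tested, with 5 called higher in CUTLL1 (4 past 2-fold) and 1 in KOPTK1. GZMM (160.0 and 166 against 22.3 and 28), CST7 (1.83 ± 0.077) NCR3 (1.42 ± 0.13) and PRF1, which encodes perforin (0.49 ± 0.062), were among them, while GNLY and GZMB stayed at or under 2.30. The list summed to 3438 and 3511 in CUTLL1 and 2872 and 2838 in KOPTK1. Of 19 erythroid and megakaryocyte markers 2 were tested, TFRC (-0.10 ± 0.031, not called when 1 of 3 of the libraries was left out) and EPOR (1.22 ± 0.077), and HBB had no read. Their sums were 36671 and 38282 in CUTLL1 and 39698 and 40076 in KOPTK1, nearly all from TFRC. Of 14 epithelial and stromal markers VIM (0.38 ± 0.026) and SPARC (1.54 ± 0.12) were tested, and EPCAM read at most 5.22. The sums were 42688 and 43110 in CUTLL1 and 32553 and 32572 in KOPTK1, nearly all from VIM. The part of any other cell type in the line differences was not tested.

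The line difference was also taken within each kind of control. All 10821 called genes had the same direction in guide controls alone and in ASO controls alone, which a call over so few libraries nearly requires. In a fit of 10 group means over all 16 libraries, the difference between guide and ASO controls in the line difference was called for 2 of 14020 genes (0.0143%), and 465 had an unadjusted p under 0.05. Of the 3 genes with the smallest p, FAM134B, an endoplasmic reticulum receptor of autophagy, read 0.976 and 11.5 in CUTLL1 against 2041 and 2129 in KOPTK1. RNF130, which missed the threshold (limma adjusted p = 0.0516), read 0.976 and 19.6 in CUTLL1 against 3169.7 and 3065 in KOPTK1. Both are high in KOPTK1, and their difference between controls lies in the ASO control of CUTLL1. Over the 58 genes high in KOPTK1, the summed level in that library was above that in the guide control (0.354% against 0.118%). Both genes meet the limits of that set, so their own reads help to make these shares. The part of trace reads in their values was not tested. ALDH1L2, a mitochondrial folate enzyme, read 17.6 and 58.7 in CUTLL1 against 22.3 and 0.652 in KOPTK1, and its 8 targeted libraries 20.7 to 38.2. Here the ASO control of KOPTK1 was the low library.

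The same contrast in the 8 targeted libraries, none of which entered the fit of the 4 controls, gave 11143 called genes of 13414 tested (83.1%), 2883 of them past 2-fold (21.5%). Called in both with the same direction were 9097 genes, 84.1% of the calls in controls and 81.6% of those in targeted libraries, and 246 were called with opposite directions. Past 2-fold, 2244 were shared, 72.1% of the control list and 77.8% of the targeted list. One gene was opposite past 2-fold, the adaptor SHC4, at -1.94 ± 0.12 in controls and 2.22 in targeted libraries. It read 102 and 85.2 in CUTLL1 against 361 and 359.9 in KOPTK1, and targeted means were 62.9 and 12.9. Levels also differed between control and targeted libraries. The mean of IL7R in targeted libraries was 1774 in CUTLL1 and 158 in KOPTK1, with a line difference of 3.48, and that of CISH 121 and 14099.8 (-6.86). NRARP had means of 557 and 0.288. NOTCH1 was higher in CUTLL1 in controls and lower there in targeted libraries (-0.19, limma adjusted p = 3.59e-06), and CXCR4 kept its direction (0.13, limma adjusted p = 0.000143).

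**Figure D5:**
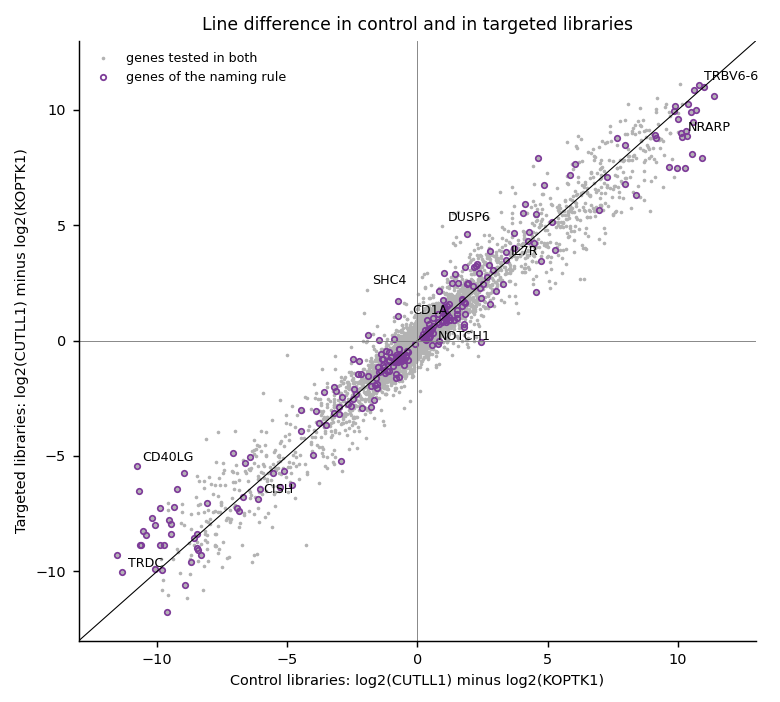
Line difference, log2(CUTLL1) minus log2(KOPTK1) of normalised count + 1, in the 4 control libraries (horizontal) and the 8 targeted libraries (vertical), with the line of equal differences. Grey points are genes tested in both and open circles those of the naming rule. Most large differences keep their sign, and SHC4 lies in the upper left.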

How the data were processed

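RNA was sequenced from 16 libraries, of which the 4 controls of CUTLL1 and KOPTK1 form the comparison. Per the labels' protocols, the cells were kept in serum-containing RPMI, RNA was column-purified and a kit that keeps strand was used for Illumina libraries. The deposited signal is in normalised read counts for 57820 genes by symbol, 2344 of them with an Ensembl identifier. In each of the authors' 4 columns used for the comparison the values behave as read numbers over a common factor, since 100% of them were whole multiples of the smallest nonzero value, within 1e-06. Per the submitters' processing notes, hg19, STAR (version 1.4.2) and DESeq2 were used, in roles that the notes leave out. Not given in the sources used here are the counter, annotation, use of strand and filters, so overlapping and antisense genes cannot be told apart, and a low count can hold reads of a near-identical gene. No coordinates of the reads' build are given. RefSeq (GRCh38.p14) served only for promoters, symbols and gene order.

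limma 3.58.1 (R 4.3.3; lmFit, eBayes with trend) tested log2(normalised count + 1), CUTLL1 minus KOPTK1, for genes with a mean of 20 or more, with Benjamini-Hochberg adjustment at 0.05. A fold change on this scale understates that of low genes. Linear folds are ratios of mean normalised counts. The interaction and the values within a kind of control came from 10 group means over all 16 libraries, where a lone control is assumed to vary like the other groups. The targeted libraries were fitted with kind of targeting as a term. edgeR 4.0.16 (quasi-likelihood, TMM) and DESeq2 1.42.0 on recovered reads were alternatives, as were another pseudocount (5), filter (none, or 100) or scaling, robust moderation, a block for kind of control, and leaving out each library. The model was tested on simulated data. Intervals are exact 95% intervals for a ratio of 2 counts and cover counting error only.

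The comparison, the 36 gene lists and the rules were chosen with earlier results of these data known. The text names, per direction, the 12 called genes with the largest difference and a level of 200 or more, up to 12 genes read in 1 line only, up to 4 called members of each list (level 50 or more), all subtype oncogenes, CXCR4, NOTCH1, MYC, CDKN2A, CDKN2B, MTAP and NR3C1, up to 3 runs of neighbours and the 3 smallest p of the interaction. Any other gene named is a member of a list or was picked with its values in view, and some genes that the rule takes and 1 list are not reported here. A check of CpG content in promoters of genes read in 1 line only was void, since 67.9% to 79.2% of the genes compared had a promoter.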

Additional observations from a re-analysis of the deposited data

Results flagged for a closer look

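For 2 genes the difference between CUTLL1 and KOPTK1 was not the same with guide controls as with ASO controls, by limma's test of that difference over all 16 libraries. For ALDH1L2, a mitochondrial enzyme of folate metabolism, the line difference with guide controls minus that with ASO controls was -5.50 (SE 0.57, limma adjusted p = 0.0154). It read 17.6 and 58.7 in CUTLL1 against 22.3 and 0.652 in KOPTK1, and its HPB-ALL controls 31.7 and 41.9. For FAM134B the value was -2.60 (SE 0.31, limma adjusted p = 0.0269), from 0.976 and 11.5 in CUTLL1 against 2041 and 2129 in KOPTK1. Each group here is 1 library, so these values cannot tell the kind of control from the single library. The higher CUTLL1 value of FAM134B was that of the ASO control. There the 58 genes high in KOPTK1 summed to 0.354% of their KOPTK1 level, against 0.118% in the guide control. FAM134B is 1 of these genes, and the part of trace reads in its value was not tested.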

How the results depend on the processing

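The number of genes called (10821) stayed within 1.5 times under all 17 alternatives, at 8993 (ASO controls alone) to 12531 (no filter), and calls shared with the main analysis kept their direction, except 3 of 10096 under quantile scaling. Without 1 library the calls numbered 9264 to 9904, those higher in CUTLL1 4409 to 5024, those higher in KOPTK1 4820 to 4908, and those past 2-fold 1552 to 1809 and 1327 to 1490. Past 2-fold, no filter gave 2854 genes higher in CUTLL1 and 2388 in KOPTK1, against 1694 and 1417, since 28312 genes were then tested, and a mean of 100 or more left 980 in CUTLL1. With the kind of control as a replicate block 10873 genes were called, 5394 of them higher in CUTLL1. Over all genes, the controls of a kind did not deviate together across the lines (correlation of deviations over 13848 genes -0.01). Nor did targeted libraries of the same number (0.01 for guides and -0.03 for ASOs). A shared effect on a part of the genes was not tested. The targeted calls were 11214 with their number as a block. edgeR called 11095 and DESeq2 9955. The difference between kinds of control was called for 1 gene at a mean of 100 or more, with fewer genes tested. Genes read in 1 line only depend on the limits: 349 in CUTLL1 and 281 in KOPTK1 with a level of 20 or more, 99 and 78 with 200 or more, and 106 and 60 with no read in the other line. Of 344 genes named, 24 changed their side of the threshold or their direction under any alternative. TRBC2 turned from -0.13 to 0.0701 under quantile scaling (limma adjusted p = 0.00899), which also ended the call of HLA-G. Without 1 library the calls of TFRC and HLA-G (each of 3 libraries), TRBC2 (either CUTLL1 control), IFI27, ALG8 and MT-RNR2 (the CUTLL1 guide control) were lost. The fit of all 16 libraries ended the calls of DLL3, POU2AF1 and TFRC, and DESeq2 those of HLA-G and HIST1H2BD. Within 1 kind of control, where a line has 1 library, ASS1, BCL11B, CYTIP, HOXB3, ISG15, LFNG, MX1, NR3C1, PRF1 and TNFRSF10A also lost theirs. Over the 36 lists, 1121 of 1224 counts past 2-fold stayed within 1.5 times and 524 of 611 medians within 0.1. The difference between kinds of control cannot be recomputed without 1 control library, since each kind is 1 library a line.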

Other observations

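Several genes outside the lists were among the most abundant differences, and were chosen after their values were seen. GAB2, a scaffold adaptor that recruits PI3K and SHP2 to receptors, read 682 and 706 in CUTLL1 against 62473 and 59379.8 in KOPTK1, an 87.8-fold difference (-6.45 ± 0.035, limma adjusted p = 4.88e-10), and 5125 and 4794 in the HPB-ALL controls. Among genes near it on the chromosome, NARS2 differed in the same direction by -0.26 ± 0.037. ALG8 differed by 0.14 ± 0.034 and USP35 by 0.13 ± 0.093, the last not called. The copy number of these genes was not measured. MAL, a lipid raft protein of T cells, read 2857 and 2878 against 26714 and 25837, and the chloride channel gene CFTR 2599 and 2479 against 25726 and 25057. MYO18B, a muscle myosin, read 3.9 and 61 against 15818 and 14592. In the other direction, KDM5B, a histone demethylase, read 8044 and 8092 in CUTLL1 against 7.75 and 5.22 in KOPTK1, the amyloid precursor gene APP 9309 and 9125 against 117 and 132, and ATF5 13338 and 13449.9 against 1181 and 1117. In HPB-ALL controls KDM5B read 3865 and 3547 and APP 31.7 and 25.7.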
